A study of Homo sapiens with 18 samples.

Results

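The genes described here are the cyclins, cyclin-dependent kinases (CDKs) and inhibitors of the G1 phase of the cell cycle, with the retinoblastoma gene RB1 and with TSPAN31, a tetraspanin gene that overlaps CDK4. The 10 listed genes were CCND1, CCND3, CDK4, CDK6, TSPAN31, RB1, CDKN1A, CDKN1B, CCNE1 and CDK2. They were looked up by Ensembl identifier after all intervals of a gene were summed. Of these, 8 were found, with 64 of the 98665 intervals of the table, and CDK6 and CDK2 were not analysed here. The table held 12755 genes, of which 10191 had a mean of 10 or more over all libraries and were tested, and all 8 of the found genes were among those.

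The cells were MDA-MB-453, an established breast cancer line, and new RNA was read by SLAM-seq. In this method cells take up 4-thiouridine (4sU), and iodoacetamide makes the incorporated base read as C in place of T, so that reads with T-to-C changes come from RNA made during the labelling. Cells were given DMSO, the solvent control, or JQ1-VHL, a compound that joins the BET bromodomain ligand JQ1 to a ligand of the VHL ubiquitin ligase, for 3 hours, and 4sU was present at 0.1 mM for the final 60 minutes. Sample titles call the drug dBET, and the series description calls it JQ1-VHL. Polyadenylated RNA of whole cells (total), of digitonin-permeabilised nuclei and of the cytoplasm released from them gave 6 groups of 3 libraries: DMSO total, DMSO nuclear, DMSO cytoplasmic, and the same fractions under JQ1-VHL. All groups shared the cell line, the medium and the 4sU label, no group lacked 4sU, and the line is a single model.

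D-type cyclins (CCND1, CCND3) bind CDK4 or CDK6, and cyclin E (CCNE1) binds CDK2. Both kinds of complex phosphorylate the retinoblastoma protein, which otherwise holds E2F factors and represses the genes of S phase. The inhibitors p21 (CDKN1A) and p27 (CDKN1B) bind these complexes and restrain CDK2, and BET proteins are readers of acetylated histones that help RNA polymerase II into productive elongation.

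Gene values are sums of T-to-C reads scaled by ERCC spike-in RNA, given here as units. With M for 1000000, libraries held 1.585 to 6.773 M recovered T-to-C reads, summed over intervals. A read may be counted in more than 1 interval, so read numbers of libraries and genes may be too high. A single read in 1 interval counted for 0.470 to 2.75 units, by library. Library totals on this scale ran from 0.753 M units in JQ1-VHL nuclear library 3 to 18.66 M in DMSO cytoplasmic library 3, and DMSO total library 1, with 10.82 M, stood above its group (2.776 and 3.315 M). ERCC RNA was added by RNA mass and not by cell number, so units follow new RNA per mass of recovered RNA. Neither cell number nor RNA per cell can be read from them. A further, rescaled value divides each library by a median-of-ratios factor (0.175 to 3.34 over the libraries) and so sets a gene against the typical tested gene. In ERCC-scaled units the median log2 change of all tested genes under JQ1-VHL was -0.49 in total, -1.82 in nuclear and -0.022 in cytoplasmic RNA. After rescaling these medians were -0.19, -0.00838 and 0.0466. The 8 luminal breast markers FOXA1, GATA3, SPDEF, KRT8, KRT18, ERBB2, PIP and EPCAM all passed the filter. Of 11 markers of other lineages 2 passed, COL1A1 (median 469 units) and ALB (31.8), and ESR1 was listed at a median of 0 units. FOXA1, SPDEF and PIP had lower medians than COL1A1, at 113, 80.7 and 4.81 units, and the other luminal markers named had higher ones.

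For orientation, the promoter stretches of the p21 and cyclin E genes are shown, because CDKN1A had the largest rise of the 8 genes after rescaling in nuclear RNA and CCNE1 is the cyclin of the later G1 step. They come from RefSeq (GRCh38.p14, plus strand, 5′ to 3′) and hold no exon base of their gene in GENCODE 29. That of CCNE1 ends just before the annotated gene, while that of CDKN1A lies before a RefSeq start that is inside the annotated gene, after its first exon base. The stretch of CDKN1A is chr6:36678464-36678657 and that of CCNE1 is chr19:29811741-29811897. Capitals mark the GC box GGGCGG on either strand, the letters known for binding of Sp1-type factors, and no marked words overlap.
CDKN1A: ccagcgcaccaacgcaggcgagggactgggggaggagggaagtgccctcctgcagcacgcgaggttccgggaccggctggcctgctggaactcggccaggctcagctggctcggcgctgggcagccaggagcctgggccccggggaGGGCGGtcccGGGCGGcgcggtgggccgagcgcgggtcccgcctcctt
CCNE1: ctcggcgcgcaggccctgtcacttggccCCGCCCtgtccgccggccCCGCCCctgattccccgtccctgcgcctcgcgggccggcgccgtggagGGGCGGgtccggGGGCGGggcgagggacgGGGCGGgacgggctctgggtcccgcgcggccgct
The printed stretches hold 2 and 5 GC boxes. Promoter windows were matched for 8 of the 10 listed genes, 11 windows in all, with none for CCND1 and CDK2. In the full 250 bases before the start, CDKN1A held 4 GC boxes, CCNE1 7, CDK4 3 and CDKN1B 1. A GC box was present in 42.6% of 35116 windows of that length, CCAAT in 32% and TATAAA in 10.7%. TSPAN31 held 3 CCAAT words and no GC box. The E2F words TTTCCCGC, TTTGGCGC, TTTCGCGC and TTTGCCGC, present in 2.79% of windows, were in none of the 11. These matches are letters in a window and nothing was measured at them.

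Under JQ1-VHL, new RNA of the cyclin D1 gene fell in the nucleus on both scales. Relative to the typical gene, new RNA of CDKN1A and RB1 rose in the nucleus, while CCND1 fell in every fraction. In the cytoplasm TSPAN31 rose on both scales, from 0 to 7 reads in a DMSO library, and CDK4 and RB1 rose after rescaling. The cytoplasmic calls of CDK4, of RB1 and of TSPAN31 on the ERCC scale were each lost on leaving out single libraries. New RNA of CCND3 did not pass the test in any of these comparisons with all libraries. The plots of the values by library and of the changes show these patterns.

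**Figure D1:**
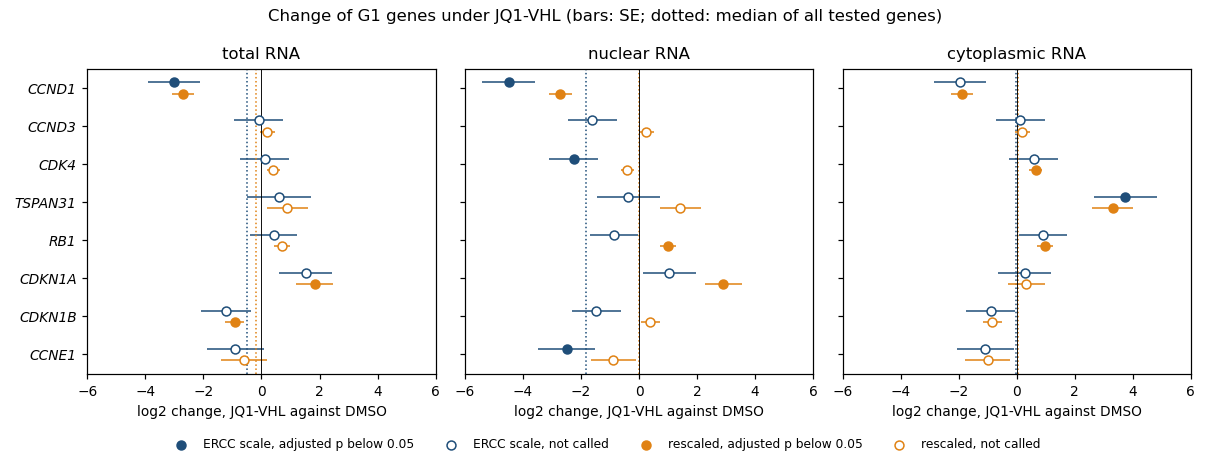
Log2 change under JQ1-VHL against DMSO in total, nuclear and cytoplasmic RNA for the 8 genes, on the ERCC scale (blue) and after rescaling (orange); points are limma estimates from 3 libraries a group, bars are SE, filled points have an adjusted p below 0.05, and dotted lines are the medians of all 10191 tested genes. CCND1 lies furthest to the left in every panel, and TSPAN31 lies furthest to the right in cytoplasmic RNA.

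The D-type cyclins differed from each other. CCND1 (ENSG00000110092, chr11:69641087-69654474, plus strand, GENCODE 29 on GRCh38) encodes cyclin D1, the partner that activates CDK4 and CDK6, and its end overlaps LTO1 on the opposite strand. In nuclear RNA it was at 1022, 322.7 and 232.8 units in DMSO libraries 1, 2 and 3 and at 26.06, 35.52 and 5.702 units under JQ1-VHL. The groups did not overlap, and the lowest DMSO library was several times the highest JQ1-VHL library. The log2 change on the ERCC scale was -4.50 ± 0.90 (SE, n = 3 a group, limma with Benjamini-Hochberg adjustment, adjusted p = 0.000127). After rescaling the nuclear values were 438.7, 281.1 and 222.6 in DMSO and 53.6, 52.99 and 32.64 under JQ1-VHL. That log2 change was -2.71 ± 0.39 (limma, adjusted p = 8.55e-05), and the gene stayed called without any 1 of the libraries compared, on both scales. Without JQ1-VHL nuclear library 3, the shallowest, the log2 change was -3.76 on the ERCC scale and -2.45 after rescaling.

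In total RNA CCND1 was at 1339, 221.2 and 235 units in DMSO and at 78.34, 63.78 and 25.2 units under JQ1-VHL, again without overlap. The log2 change was -3.01 ± 0.90 on the ERCC scale (limma, adjusted p = 0.0374) and -2.71 ± 0.39 after rescaling (limma, adjusted p = 0.000248). The ERCC-scale call did not hold without DMSO total library 1 (adjusted p = 0.53), 3 (0.063) or any of JQ1-VHL total libraries 1, 2 and 3 (0.054, 0.11 and 0.35), nor with a pseudocount of 0.1 (0.074), whereas the rescaled call held throughout. In cytoplasmic RNA it was at 439.2, 106.6 and 608.7 units in DMSO and at 79.58, 75.28 and 78.21 units under JQ1-VHL. The JQ1-VHL libraries lay close together below all DMSO libraries. The log2 change of -1.96 ± 0.90 missed the threshold on the ERCC scale (limma, adjusted p = 0.268) but passed it without DMSO cytoplasmic library 2 (-2.72, adjusted p = 0.02), and that of -1.89 ± 0.39 after rescaling passed it (limma, adjusted p = 0.00186).

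All 4 intervals of CCND1 were lower under JQ1-VHL in every fraction, with no overlap of rescaled values. Here and for the genes below, the share over all intervals of the table was not computed. Intervals of a gene may share reads and are not separate observations. For CCND1 the highest interval number equals the number of gaps between merged exons in GENCODE 29 (4), and numbering was taken to follow the genome. Over matching plus-strand genes with more intervals, nuclear signal followed gap length weakly in that order (median Spearman's rho 0.371, against 0.0357 in the opposite order). The order was not checked for CCND1 itself. Interval 1 held 200 reads in the 3 DMSO nuclear libraries and 7 under JQ1-VHL, and in the cytoplasm it held 90 and 1. Interval 3 held 1003 and 55 reads in the nucleus and 245 and 71 in the cytoplasm. In the cytoplasm the log2 ratio of rescaled group means plus 1 was -4.61 for interval 1 and -1.22 for interval 3. That difference is a description, and the counts of interval 1 are small.

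CCND3 (ENSG00000112576, chr6:41934933-42050357, minus strand, GRCh38) encodes cyclin D3, a further partner of CDK4 and CDK6. In nuclear RNA it was at 376.7, 153.8 and 130.7 units in DMSO and at 96.28, 91.05 and 29.46 units under JQ1-VHL. The JQ1-VHL libraries were all lower, but the log2 change of -1.61 ± 0.84 did not pass (limma, adjusted p = 0.109) and lay near the median of all genes. After rescaling the nuclear values overlapped, at 161.7, 134 and 125 in DMSO and 198, 135.8 and 168.6 under JQ1-VHL, with a log2 change of 0.25 ± 0.26 (limma, adjusted p = 0.493). In the cytoplasm its rescaled values were 476.5, 407.6 and 957.1 in DMSO and 649.8, 598.8 and 712.5 under JQ1-VHL, and in total RNA 326.5, 246.6 and 263.5 against 295.2, 300.9 and 364.4. Both pairs of groups overlapped, with log2 changes of 0.19 ± 0.26 and 0.20 ± 0.26, and the first became 0.58 and was called without DMSO cytoplasmic library 3 (limma, adjusted p = 0.047). Its 9 intervals were not alike: intervals 1 to 5 overlapped between the groups in every fraction, while intervals 6 and 10 were lower in total and in nuclear RNA. Interval 10 held 29 reads in DMSO total and 2 in JQ1-VHL total libraries, and 50 and 5 reads in nuclear RNA. Interval 4 held most of the cytoplasmic signal together with 3 and 5, at 435 reads in DMSO and 331 under JQ1-VHL. Neighbouring intervals can hold nearly equal reads (2 of 6 pairs of this gene with at least 20 reads differed by under 2%), so a read may be counted in more than 1 interval.

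The kinase gene CDK4 (ENSG00000135446, chr12:57747727-57756013, minus strand, GRCh38) encodes the kinase that D-type cyclins activate. It overlaps TSPAN31, on the plus strand, at chr12:57747727-57750211, and also MARCH9, and whether the counting used strand is not given in the sources used here. In nuclear RNA CDK4 was at 496.2, 202.6 and 205.5 units in DMSO and at 67.55, 101.4 and 26.61 units under JQ1-VHL. All JQ1-VHL libraries were lower. The log2 change of -2.25 ± 0.84 passed the test (limma, adjusted p = 0.0294), but not without DMSO nuclear library 1 (adjusted p = 0.2) or 2 (0.051), without JQ1-VHL nuclear library 1 (0.053) or 3 (0.24), or with the highest interval in place of the sum (0.15). Relative to the typical gene it was -0.40 ± 0.23 (limma, adjusted p = 0.191), from 213, 176.5 and 196.6 rescaled units in DMSO and 138.9, 151.3 and 152.3 under JQ1-VHL, which did not overlap.

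In the cytoplasm the order was the opposite. CDK4 was at 320.6, 529.9 and 618.1 rescaled units in DMSO and at 655.8, 661.3 and 937.6 under JQ1-VHL, with no overlap. The rescaled log2 change was 0.65 ± 0.23 (limma, adjusted p = 0.0397), lost without DMSO cytoplasmic library 1 (adjusted p = 0.21) or JQ1-VHL cytoplasmic library 3 (0.12). In ERCC-scaled units the cytoplasmic groups overlapped, with 604.3, 186.7 and 1843 units in DMSO and 911, 1047 and 738.8 under JQ1-VHL, and the log2 change was 0.59 ± 0.84 (limma, adjusted p = 0.903). In total RNA the rescaled values were 271.7, 280.3 and 233.4 in DMSO and 355.8, 388.6 and 303.5 under JQ1-VHL. They did not overlap, but the log2 change of 0.41 ± 0.23 did not pass (limma, adjusted p = 0.175), although it did by edgeR with TMM factors (adjusted p = 0.027).

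The 7 intervals of CDK4 moved in different ways. Interval 5 was at 15.82, 11.25 and 15.74 rescaled units in DMSO nuclear libraries and at 1.094, 0 and 0 under JQ1-VHL, that is 103 reads against 1. Interval 6 held 72 and 4 nuclear reads, and both intervals were also lower in total RNA. Intervals 3 and 4, with the most reads, were higher in total and cytoplasmic RNA and overlapped in nuclear RNA. Interval 4 was at 113, 136.4 and 219 rescaled units in DMSO cytoplasm and at 238.2, 226.8 and 228.6 under JQ1-VHL. The interval count does not match the exon gaps of GENCODE 29 for this gene (7 against 9), so intervals were not placed on the genome.

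TSPAN31 (ENSG00000135452, chr12:57738013-57750211, plus strand, GRCh38) encodes a tetraspanin membrane protein and overlaps CDK4 at 1 end and AGAP2 at the other. In the cytoplasm it was at 6.605, 3.866 and 0 units in DMSO and at 37.7, 98.94 and 22.35 units under JQ1-VHL, from 4, 7 and 0 reads and 18, 46 and 16 reads. No JQ1-VHL library was as low as any DMSO library. The log2 change was 3.75 ± 1.10 on the ERCC scale (limma, adjusted p = 0.0268) and 3.31 ± 0.70 after rescaling (limma, adjusted p = 0.00233). The ERCC-scale call was lost without DMSO cytoplasmic library 3, the library at 0 (log2 change 2.88, adjusted p = 0.28), and without JQ1-VHL cytoplasmic library 2 (3.17, adjusted p = 0.13). It was also lost with a pseudocount of 10 (adjusted p = 0.069) and by edgeR with the ERCC factors (adjusted p = 0.093), and the rescaled call held.

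The rise of TSPAN31 lay in 1 of its 4 intervals. Interval 2 was at 3.503, 0 and 0 rescaled units in DMSO cytoplasm and at 21.11, 54.32 and 28.36 under JQ1-VHL. It did not overlap in the nucleus (3.867, 0.9779 and 5.397 against 27.35, 23.12 and 48.96) or in total RNA (6.024, 6.128 and 6.182 against 32.91, 33.17 and 22.57) either. Intervals 3, 4 and 5 overlapped between the groups in every fraction. For the whole gene the nuclear change was 1.42 ± 0.70 after rescaling (limma, adjusted p = 0.127, and 0.018 by DESeq2) and -0.37 ± 1.10 on the ERCC scale (limma, adjusted p = 0.76), and the total change was 0.89 ± 0.70 after rescaling (limma, adjusted p = 0.334). Which of the overlapping genes the reads of interval 2 came from was not tested.

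**Figure D2:**
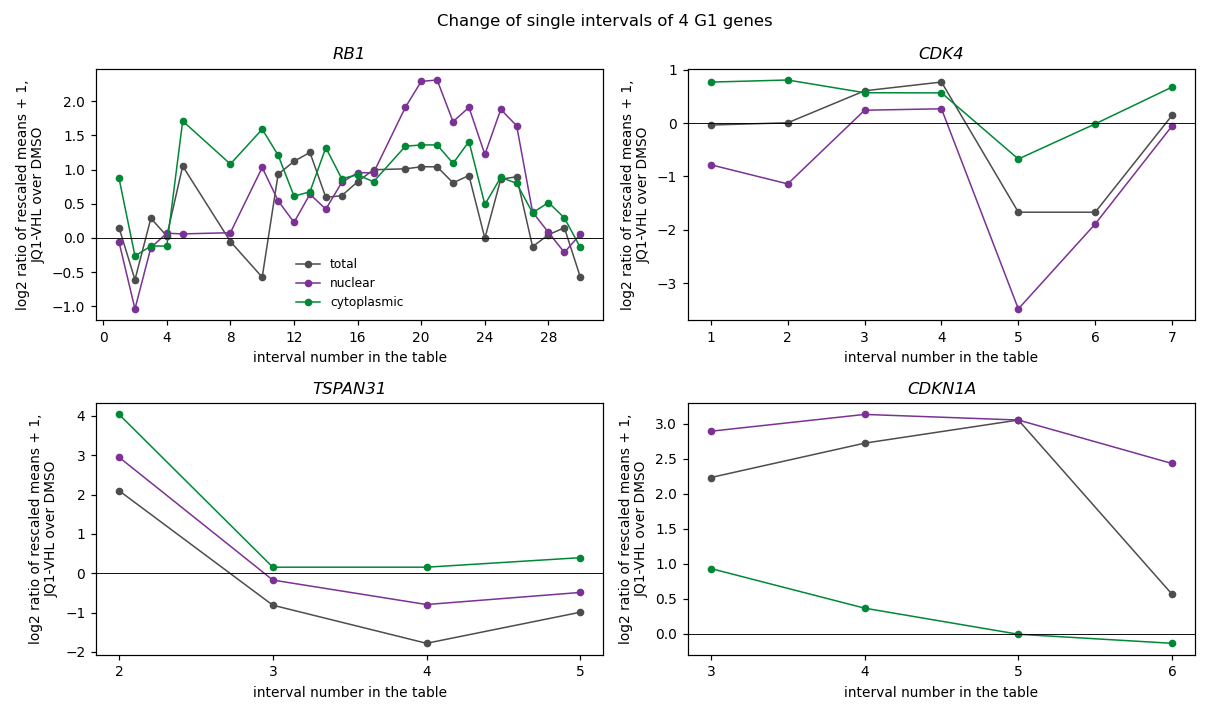
Log2 ratio of group means of rescaled values plus 1, JQ1-VHL over DMSO, for each counted interval of RB1, CDK4, TSPAN31 and CDKN1A in total (grey), nuclear (purple) and cytoplasmic (green) RNA, against the interval number in the table. CDK4 dips at intervals 5 and 6, TSPAN31 is high at interval 2 alone, and RB1 is highest in the nucleus at intervals 19 to 26.

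RB1 (ENSG00000139687, chr13:48303726-48599436, plus strand, GRCh38) encodes the retinoblastoma protein, the substrate of the G1 kinases. In nuclear RNA it was at 217.6, 215.1 and 271.7 rescaled units in DMSO and at 387.3, 444.1 and 606.6 under JQ1-VHL. Every JQ1-VHL library was above every DMSO library, and the log2 change was 1.01 ± 0.27 (limma, adjusted p = 0.01). In the cytoplasm the rescaled values were 661.3, 700.8 and 501.6 in DMSO and 898.6, 1104 and 1746 under JQ1-VHL, with a log2 change of 0.96 ± 0.27 (limma, adjusted p = 0.0134) that was lost without JQ1-VHL cytoplasmic library 3 (adjusted p = 0.059). In total RNA the change of 0.72 ± 0.27 just missed the threshold (limma, adjusted p = 0.0538) and passed it with the replicate number as a block (adjusted p = 0.022), by edgeR with TMM factors (0.0095), by DESeq2 (0.039) and without JQ1-VHL total library 1 (0.029). In ERCC-scaled units the nuclear change had the opposite sign, -0.86 ± 0.82 (limma, adjusted p = 0.36), from 506.9, 247 and 284 units in DMSO to 188.3, 297.7 and 106 under JQ1-VHL, which overlapped. RB1 rose relative to the median of all genes, and its values in units did not pass the test.

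Intervals of RB1 differed in their nuclear change. Its highest interval number (30) does not match its exon gaps in GENCODE 29 (29), so these intervals were not placed on the genome either. Of its 26 intervals, 12 were higher without overlap in the nucleus, 14 overlapped and none was lower. The share over all intervals of the table was not computed, and 29.5% of tested genes were higher in this sense. Neighbouring intervals may share reads, since intervals 20 and 21 each held 63 reads in DMSO nuclear libraries. The intervals are therefore not separate observations. Interval 20 was at 6.679, 8.312 and 12.14 rescaled units in DMSO nuclear libraries and at 26.25, 36.61 and 81.6 under JQ1-VHL. All of intervals 19 to 26 in the table were higher in this way, with log2 ratios of 1.22 to 2.31. Intervals 27 to 30 overlapped, and interval 28 was at 41.48, 44.98 and 44.08 in DMSO and at 31.72, 49.13 and 57.12 under JQ1-VHL. The log2 ratio of its first 8 to its last 8 intervals in a library was -1.21, -1.99 and -1.07 in DMSO nuclear and -2.24, -2.14 and -2.58 in JQ1-VHL nuclear libraries, which did not overlap. The same ratio overlapped between the treatments in total RNA (-2.37 to -1.43 in DMSO and -2.75 to -2.28 under JQ1-VHL) and in the cytoplasm (-4.55 to -1.99 and -3.46 to -2.69). LPAR6 and RCBTB2 lie within RB1 on the opposite strand, and their part in these reads was not tested.

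In total RNA after rescaling the inhibitor genes were called in opposite directions, CDKN1A higher and CDKN1B lower, and the difference between them was not tested. CDKN1A (ENSG00000124762, chr6:36676460-36687339, plus strand, GRCh38) encodes p21, a classic target of p53, and overlaps the noncoding gene DINOL on the opposite strand. In nuclear RNA it was at 75.33, 72.41 and 68.19 units in DMSO and at 141, 215.7 and 109.3 units under JQ1-VHL. It was the only 1 of the 8 genes whose nuclear JQ1-VHL libraries all lay above the DMSO libraries on the ERCC scale, where 0.353% of tested genes did so. The log2 change on that scale was 1.04 ± 0.91 and did not pass (limma, adjusted p = 0.32). After rescaling the values were 32.34, 63.08 and 65.22 in DMSO and 289.9, 321.8 and 625.6 under JQ1-VHL, with a log2 change of 2.90 ± 0.64 (limma, adjusted p = 0.00249). That call held without any 1 of the compared libraries, and without JQ1-VHL nuclear library 3 the change was 2.59.

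In total RNA CDKN1A was at 47.59, 68.93 and 73.41 rescaled units in DMSO and at 92.56, 418.2 and 287.7 under JQ1-VHL. The JQ1-VHL libraries were higher and spread widely. The log2 change of 1.83 ± 0.64 passed (limma, adjusted p = 0.0367), and was lost without any of DMSO total libraries 1, 2 and 3 (adjusted p = 0.12, 0.074 and 0.066) or JQ1-VHL total libraries 2 and 3 (0.16 and 0.12). In units it was 1.53 ± 0.91 (limma, adjusted p = 0.414). In the cytoplasm the rescaled values, 69.19, 119.2 and 17.55 in DMSO and 40.71, 47.53 and 152.4 under JQ1-VHL, overlapped, and the change was 0.33 ± 0.64 (limma, adjusted p = 0.722). All 4 intervals of CDKN1A were higher in the nucleus and all 4 overlapped in the cytoplasm. The share over all intervals was not computed. Neighbouring intervals may share reads (1 of 3 pairs of this gene differed by under 2%), so they are not separate observations. Interval 5 was at 7.382, 13.2 and 18.44 rescaled units in DMSO nuclear libraries and at 74.39, 82.85 and 187.7 under JQ1-VHL. Interval 6 was higher in the nucleus but overlapped in total RNA, at 22.89, 33.7 and 37.87 in DMSO and 20.57, 69.89 and 50.77 under JQ1-VHL.

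CDKN1B (ENSG00000111276, chr12:12715058-12722371, plus strand, GRCh38) encodes p27, an inhibitor of cyclin E with CDK2. The sense-intronic gene AC008115.3 lies within it on the same strand (chr12:12718973-12719521), and its part in these reads was not tested. In total RNA CDKN1B was at 253.6, 356.9 and 354.7 rescaled units in DMSO and at 206.7, 171.8 and 132 under JQ1-VHL. All JQ1-VHL libraries were lower, also on the ERCC scale (847.9, 292 and 349.1 against 276.3, 174.5 and 140.4 units). The rescaled log2 change of -0.92 ± 0.32 passed (limma, adjusted p = 0.0378), and was lost without DMSO total library 2 or 3 (adjusted p = 0.11 for each), without JQ1-VHL total library 2 (0.084) or 3 (0.16), and with edgeR and TMM factors (0.093). The ERCC-scale change was -1.22 ± 0.86 (limma, adjusted p = 0.54). In the cytoplasm the rescaled values were 247, 205.4 and 96.08 in DMSO and 134.2, 93.69 and 67.35 under JQ1-VHL. They overlapped, and the change of -0.84 ± 0.32 missed the threshold (limma, adjusted p = 0.0564) but passed it with the replicate block (adjusted p = 0.048), by DESeq2 (0.029), and without DMSO cytoplasmic library 3 (0.0048) or JQ1-VHL cytoplasmic library 1 (0.029). In the nucleus the sign was the other way, with 232.7, 271.9 and 364.3 rescaled units in DMSO, 346.8, 399.8 and 375.4 under JQ1-VHL and a change of 0.39 ± 0.32 (limma, adjusted p = 0.367).

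Cyclin E1 is encoded by CCNE1 (ENSG00000105173, chr19:29811898-29824308, plus strand, GRCh38), the activator of CDK2 late in G1. In nuclear RNA it was at 277.6, 98.79 and 49.85 units in DMSO and at 51.06, 76.84 and 0.9503 units under JQ1-VHL, the last from 2 reads. The groups overlapped. The log2 change of -2.49 ± 0.99 passed on the ERCC scale (limma, adjusted p = 0.0388), but without JQ1-VHL nuclear library 3 it was -0.82 (adjusted p = 0.6), and it was also lost without DMSO nuclear library 1 (adjusted p = 0.26) or 2 (0.078), with a pseudocount of 10 (0.069), by edgeR with the ERCC factors (0.14) and with the highest interval (0.35). After rescaling it was -0.90 ± 0.78 (limma, adjusted p = 0.393), and 0.51 without JQ1-VHL nuclear library 3. In the cytoplasm the rescaled values were 53.43, 40.76 and 76.68 in DMSO and 39.2, 25.8 and 19.5 under JQ1-VHL, without overlap, and the change was -1 ± 0.78 (limma, adjusted p = 0.342). In total RNA the groups overlapped, and the rescaled change was -0.60 ± 0.78 (limma, adjusted p = 0.568). Of its 8 intervals, 1 was lower without overlap in nuclear RNA, 3 in total RNA and 1 in cytoplasmic RNA. The share over all intervals was not computed. For CCNE1 the log2 ratio of the first 2 to the last 2 intervals was -0.29, 0.26 and -0.28 in DMSO nuclear libraries. It was 1.62 and 1.14 in JQ1-VHL nuclear libraries 1 and 2. In JQ1-VHL nuclear library 3 both reads lay in interval 4 and the last 2 intervals were at 0, so that library gives no ratio and the groups were not compared.

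**Figure D3:**
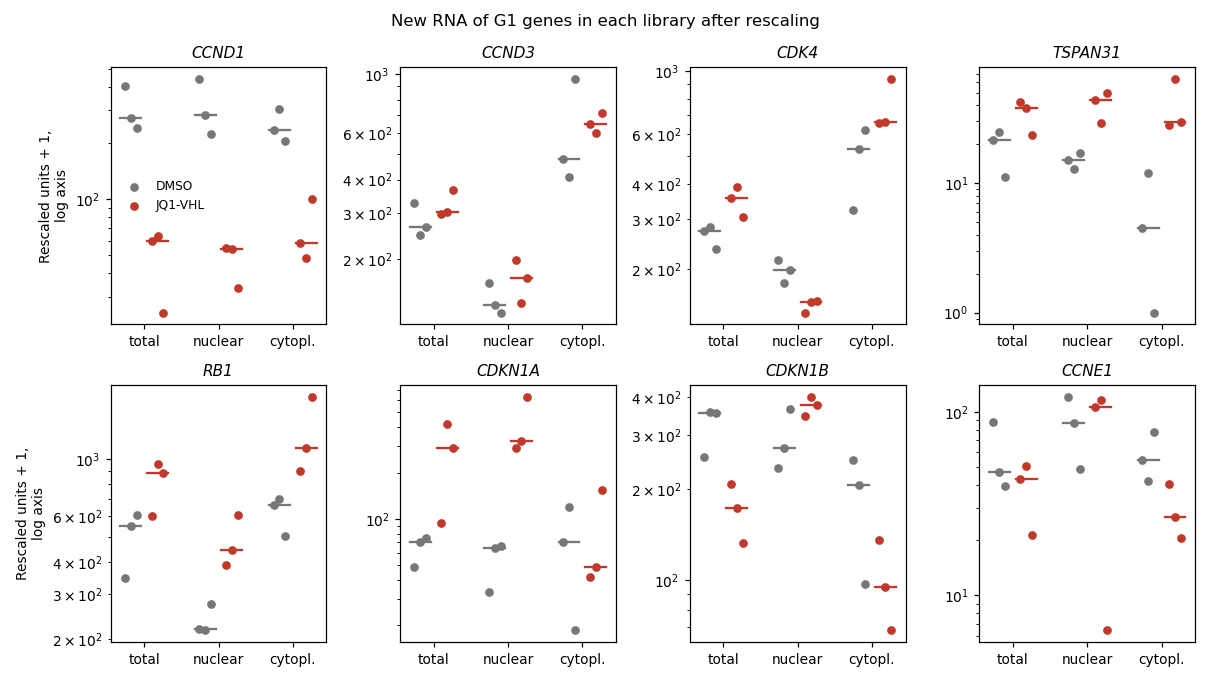
Rescaled value plus 1 on a log axis for the 8 genes in total, nuclear and cytoplasmic RNA; each point is 1 library (grey for DMSO, red for JQ1-VHL) and lines are group medians. CCND1 is lower under JQ1-VHL in every fraction, CDKN1A is higher in the nucleus but not in the cytoplasm, and 1 JQ1-VHL nuclear library of CCNE1 lies far below the others.

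Libraries of the 2 treatments did not overlap for several of the 8 genes. In total RNA 2 were lower in this sense in ERCC-scaled units (CCND1 and CDKN1B), against 24.8% lower and 1.26% higher over all tested genes. After rescaling 2 were lower (the same ones) and 2 higher (CDK4 and CDKN1A), against 34.3% and 25.4%. In nuclear RNA 4 were lower in units (CCND1, CCND3, CDK4 and CDKN1B), against 71.2%, and 1 was higher (CDKN1A), against 0.353%. After rescaling 2 were lower (CCND1 and CDK4) and 3 higher (TSPAN31, RB1 and CDKN1A), against 27.7% and 29.5%. In cytoplasmic RNA CCND1 was lower and TSPAN31 higher in units, against 5.98% and 1.37%, and after rescaling 2 were lower (CCND1 and CCNE1) and 3 higher (CDK4, TSPAN31 and RB1), against 17.9% and 18.8%. Lower nuclear units were thus the common case in the whole table, and the CDKN1A libraries lay on the other side.

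Counted over the 8 genes, the ERCC scale called 1 lower in total RNA (CCND1), where 2.79% of all tested genes were called lower and 0.245% higher. In nuclear RNA 3 were called lower (CCND1, CDK4 and CCNE1), against 33.7% lower and 0.177% higher over all genes. In cytoplasmic RNA 1 was called higher (TSPAN31), against 0.226% higher and 3.67% lower, and edgeR with the ERCC factors called none there (limma gave 2 with an unadjusted p under 0.05). The nuclear count of lower genes was near the background share. After rescaling, total RNA gave 1 higher and 2 lower, against 12.2% and 18.4% of all genes, nuclear RNA 2 higher and 1 lower, against 18.2% and 12.6%, and cytoplasmic RNA 3 higher and 1 lower, against 14.8% and 15.9%. The median rescaled log2 change of the 8 genes was 0.31 in total, 0.32 in nuclear and 0.26 in cytoplasmic RNA, and on the ERCC scale the nuclear median was -1.54, against -1.82 for all genes. Same-numbered libraries share a batch number. In all 3 pairs the rescaled difference was negative for CCND1 in every fraction and positive for CDKN1A and RB1 in the nucleus. Since these groups did not overlap, any pairing gives the same signs, and the pairs add no support. The nuclear difference was also positive in all 3 pairs for CCND3, TSPAN31 and CDKN1B, negative in all 3 for CDK4 and mixed for CCNE1. The share over all tested genes was not computed. Since the labels leave it unsaid whether replicates were cultured separately, p-values describe the spread of these libraries, which may be technical, and an exact permutation test of 3 against 3 libraries cannot go below 0.1.

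**Figure D4:**
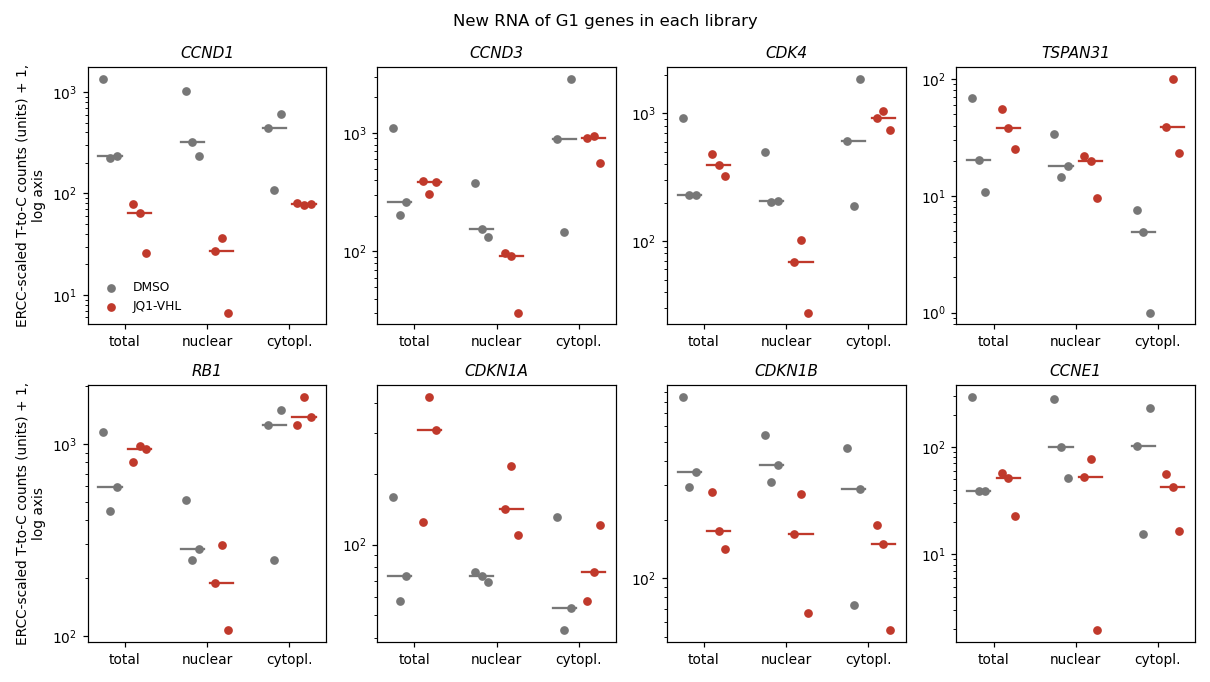
Value plus 1 in ERCC-scaled units on a log axis for the 8 genes; each point is 1 library (grey for DMSO, red for JQ1-VHL) and lines are group medians. DMSO total library 1 is the highest of its group for every gene, and the nuclear JQ1-VHL libraries lie above DMSO for CDKN1A alone.

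Nuclear and cytoplasmic new RNA were compared within each treatment. In DMSO, CCND3, CDK4 and RB1 were lower in the nucleus than in the cytoplasm after rescaling, with log2 differences of -2.03 ± 0.26, -1.27 ± 0.23 and -1.39 ± 0.27 (limma, adjusted p = 3.16e-06, 0.000134 and 0.000299). TSPAN31 was higher in the nucleus, by 1.98 ± 0.70 (limma, adjusted p = 0.0216), a call lost without DMSO nuclear library 1 (adjusted p = 0.053) or 3 (0.061) or DMSO cytoplasmic library 3 (0.16). CCND1, CDKN1A, CDKN1B and CCNE1 were not called in DMSO. CDKN1B was called higher in the nucleus there by edgeR with TMM factors (0.81, adjusted p = 0.036), and by limma without DMSO cytoplasmic library 1 (1.02, adjusted p = 0.018) or 2 (0.89, adjusted p = 0.049). That made 3 lower and 1 higher of 8, against 23.8% and 33% of all tested genes. In units none of the 8 was called by limma (2 had an unadjusted p under 0.05), where 5.92% and 14.7% of genes were lower and higher. TSPAN31 was called there with the replicate block (adjusted p = 0.039), with a pseudocount of 0.1 (0.045) and without DMSO cytoplasmic library 1 (0.043) or 2 (0.04). CCND3 was called by edgeR with the ERCC factors (adjusted p = 0.018), RB1 with the highest interval (0.02), and CCND3, CDK4 and RB1 by limma without DMSO cytoplasmic library 2 (0.00084, 0.034 and 0.014).

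Under JQ1-VHL CCND3, CDK4 and RB1 were again lower in the nucleus after rescaling, with log2 differences of -1.97 ± 0.26, -2.32 ± 0.23 and -1.35 ± 0.27 (limma, adjusted p = 3.75e-06, 9.67e-08 and 0.000325). Both inhibitor genes were higher in the nucleus after rescaling, with log2 differences of 2.52 ± 0.64 for CDKN1A and 1.97 ± 0.32 for CDKN1B (limma, adjusted p = 0.00208 and 3.92e-05). That made 3 lower and 2 higher, against 26% and 38.7% of all tested genes. CCNE1 was at 0.61 and not called by limma, but was called by DESeq2 (1.44, adjusted p = 0.035) and by limma without JQ1-VHL nuclear library 3 (1.99, adjusted p = 0.002). On the ERCC scale CCND3, CDK4 and RB1 were called lower (-3.60, -3.94 and -2.99, limma, adjusted p = 0.000211, 4.33e-05 and 0.00189), against 28.8% of genes called lower and 3.01% called higher. CCND1 missed the threshold there at -2.07 ± 0.90 (limma, adjusted p = 0.0632) and passed it with the replicate block (adjusted p = 0.042), with the highest interval (0.039) and without JQ1-VHL nuclear library 2 (0.039). Neither inhibitor gene was called on the ERCC scale. CDKN1A was at 141, 215.7 and 109.3 nuclear and at 56.55, 75.28 and 120.1 cytoplasmic units under JQ1-VHL. CDKN1B was at 168.6, 268 and 65.57 nuclear and at 186.4, 148.4 and 53.07 cytoplasmic units, which overlapped.

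**Figure D5:**
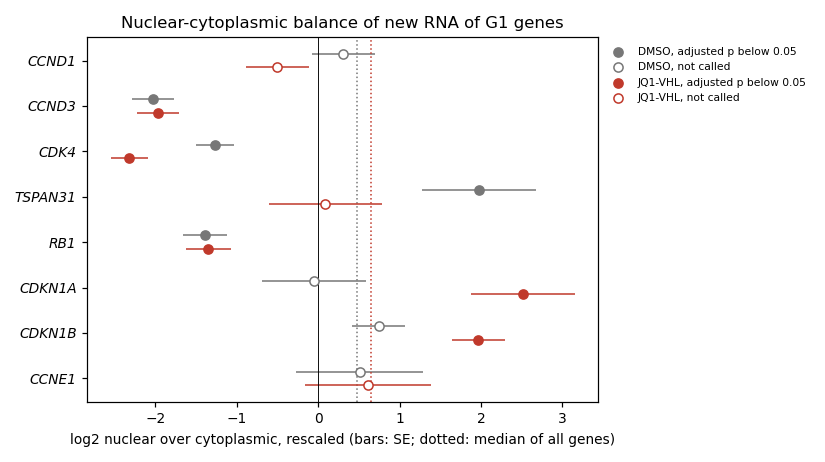
Log2 nuclear over cytoplasmic new RNA after rescaling for the 8 genes in DMSO (grey) and under JQ1-VHL (red); points are limma estimates from 3 libraries a group, bars are SE, filled points have an adjusted p below 0.05, and dotted lines are the medians of all tested genes. CCND3, CDK4 and RB1 lie on the cytoplasmic side under both treatments, and CDKN1A and CDKN1B lie on the nuclear side under JQ1-VHL.

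The difference between the nuclear and the cytoplasmic effect of JQ1-VHL was tested as an interaction. None of the 8 genes passed by limma, on either scale. On the ERCC scale 0% of tested genes were called in either direction by limma, with an unadjusted p under 0.05 for 1564 genes and for 3 of the 8 (CCND1, CDK4 and TSPAN31), and edgeR with the ERCC factors also called none. After rescaling 1.44% were called higher and 1.38% lower. The rescaled nuclear minus cytoplasmic difference was -1.05 ± 0.33 for CDK4 (limma, adjusted p = 0.0877), 2.57 ± 0.90 for CDKN1A (adjusted p = 0.126) and 1.23 ± 0.46 for CDKN1B (adjusted p = 0.148), with an unadjusted p under 0.05 for these 3 genes. CDK4 was called by edgeR with TMM factors (adjusted p = 0.034) and by DESeq2 (0.035), and CDKN1A by DESeq2 (0.023). Without DMSO cytoplasmic library 3 all 3 were called by limma (adjusted p = 0.03, 0.03 and 0.029).

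The other genes of the G1 pathway came from a list of 42, which holds 9 of the genes above. Of the 33 others 27 were tested. In nuclear RNA on the ERCC scale 12 of the 27 were called lower by limma, against 33.7% of all tested genes, and 6 by edgeR with the ERCC factors, against 2578 of 10191, with a median log2 change of -2.12 against -1.82 for all genes. After rescaling 6 were higher and 3 lower, against 18.2% and 12.6% of all tested genes, so both counts were near the background. The 3 lower ones were E2F2, SKP2 and E2F6. E2F2, an E2F activator of S-phase genes, went from 463, 337.4 and 310.4 rescaled units in DMSO to 189.3, 163.8 and 73.44 under JQ1-VHL, without overlap (log2 change -1.46 ± 0.37, limma, adjusted p = 0.00614). SKP2, the F-box protein that targets p27 for degradation, went from 140.3, 141.3 and 122.8 to 68.92, 66.47 and 10.88 (-1.82 ± 0.52, limma, adjusted p = 0.0137). The lowest of these came from 1.901 units in JQ1-VHL nuclear library 3, where 1 read counted for 0.475 units. E2F6, a repressive E2F, changed by -2.08 ± 0.76 (limma, adjusted p = 0.0451), with 2 reads in JQ1-VHL nuclear library 3.

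CKS1B, a cofactor of SKP2 in binding p27, was higher, at 498.1, 627.8 and 827.2 rescaled nuclear units in DMSO and 1137, 1176 and 1599 under JQ1-VHL (1.01 ± 0.20, limma, adjusted p = 0.00117). SKP1, the adaptor of the same ligase, and TFDP1, the partner of E2F factors, rose by 0.87 ± 0.20 in each case (limma, adjusted p = 0.00345 and 0.00362). In units these 3 genes had nuclear log2 changes of -0.855, -0.973 and -0.995, none of them called, so their rise was relative to the typical gene. SKP1 overlaps TCF7. In total RNA 3 of the 27 were higher after rescaling (CKS1B, TFDP1 and SKP1) and 8 lower, against 12.2% and 18.4% of all tested genes. Among the lower ones was E2F2 (-1.69 ± 0.37, limma, adjusted p = 0.00361). MNAT1, an assembly factor of the CDK-activating kinase, was also called lower (-2.19 ± 0.55, limma, adjusted p = 0.00805), but from 2, 1 and 3 reads in the JQ1-VHL libraries. None of the 27 passed there in ERCC-scaled units by limma or by edgeR with the ERCC factors (8 and 9 had an unadjusted p under 0.05).

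In the cytoplasm CDC25A, the phosphatase that activates CDK2, was the 1 gene of the 27 that passed on the ERCC scale. It was at 800.8, 137.5 and 1440 units in DMSO and at 104.7, 146.3 and 18.16 under JQ1-VHL, and the groups overlapped (-3.02 ± 0.87, limma, adjusted p = 0.0233). After rescaling it went from 424.8, 390.4 and 483.2 to 75.38, 92.34 and 23.04, without overlap (-2.96 ± 0.49, limma, adjusted p = 0.000435). On that scale 5 of the 27 were higher and 6 lower in the cytoplasm, against 14.8% and 15.9% of all tested genes, which is close to the background. The 2 lowest adjusted p among the higher ones were those of CKS1B (1.13 ± 0.20, limma, adjusted p = 0.000781) and TFDP1 (0.82 ± 0.20, limma, adjusted p = 0.00618). E2F2 was lower there as well (-1.57 ± 0.37, limma, adjusted p = 0.0044).

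Patterns over the 18 libraries were compared by Pearson's correlation of log2 rescaled values, as a description, since the libraries share their groups and batches. The 3 tested genes most like CCND1 were SSX2IP (0.963), LACC1 (0.946) and KMT5B (0.940). Those most like CCND3 were EPN3 (0.981), RBM42 (0.971) and ESS2 (0.971). For CDKN1A they were APAF1 (0.954), LAMB2P1 (0.875) and NANOS3 (0.863). Among the 8 genes themselves, CCND3 and CDK4 varied most alike (0.905), and CDK4 and CDKN1B most oppositely (-0.89).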

How the data were processed

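The data are SLAM-seq libraries of polyadenylated RNA, 150 bp pairs per the labels, from 18 samples in 6 groups. The deposited table holds a signal for each interval: read counts with T-to-C changes, scaled in each library by ERCC spike-in RNA per the table's name. ERCC RNA went in by RNA mass, per the labels' protocols. The builds hg19 (GRCh37) and dm3 and the tools HTSeq, HISAT2, DESeq2, Trimmomatic 0.39 and bcl2fastq are named in the submitters' processing notes. Their roles, the T-to-C calling, the strand counted and the meaning of an interval are not given in the sources used here. In each library 100% of the values lay within 0.01 of a whole multiple of the smallest one, which recovers whole reads for each interval. Reads of a gene are sums over its intervals and may count a read more than once.

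Intervals were summed by Ensembl ID, and 12512 of 12755 IDs had a symbol. The planned unit was a gene count, and the signal needed a log-scale test. The main test was limma 3.58.1 (trend, robust) on log2(value + 1), with 1 mean for each group over all 18 libraries, two-sided, with Benjamini-Hochberg adjustment at 0.05 over 10191 genes with a mean of at least 10. A log2 change on this scale understates the change of low genes. Rescaled values were divided by median-of-ratios factors over the tested genes and fitted in the same way. On the ERCC scale the fit treats a gene's variance nearly as known, so its calls carry more certainty than 3 libraries a group can give. Alternatives were pseudocounts of 0.1 and 10, no filter, edgeR 4.0.16 and DESeq2 1.42.0 on the recovered reads, a replicate block, the highest interval in place of the sum, and leaving out single libraries. The count test (edgeR with the ERCC factors) called 11 genes higher and 222 lower in total, 17 and 2578 in nuclear and 16 and 225 in cytoplasmic RNA. The tests were tried on simulated counts with the same dispersion for every gene. That setting differs from these libraries, so the trial does not show how the tests behave on them.

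Batch and replicate numbers coincide in the labels, so libraries with 1 number were taken as a pair. Across genes, the deviations of paired libraries from their group means correlated at 0.231, 0.0766 and 0.157 in total, 0.275, -0.144 and 0.259 in nuclear and 0.0788, -0.0245 and 0.0557 in cytoplasmic RNA. Replicates of a group differed by more than sampling noise. The genes, lists and naming rule were chosen with earlier results of these data known. The rule names the 10 listed genes, the 3 pathway genes with the lowest adjusted p in each direction of each JQ1-VHL comparison, and the 3 genes most like CCND1, CCND3 and CDKN1A. Gene coordinates are from GENCODE 29 on GRCh38, a later build than the one named for the table, which gives no coordinates.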

Additional observations from a re-analysis of the deposited data

How the results depend on the processing

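The number of the 8 genes called moved with the scale and, on both scales, with single libraries. Rescaled in place of ERCC values, the counts were 3 in total RNA, 4 in cytoplasmic RNA, 4 for nuclear against cytoplasmic RNA in DMSO and 5 under JQ1-VHL. With a pseudocount of 0.1 they were 0 in total RNA and 1 for the DMSO balance. A pseudocount of 10 and edgeR with ERCC factors gave 0 in cytoplasmic RNA, and edgeR gave 1 for the DMSO balance. The highest interval in place of the sum gave 1 in nuclear RNA and 1 for the DMSO balance. The replicate block gave 1 for the DMSO balance, and changed no call beyond those given with the results (TSPAN31, CCND1, RB1 and CDKN1B). For the interaction after rescaling edgeR with TMM gave 1 and DESeq2 gave 2.

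Signs that turned on rescaling, all but RB1 in nuclear RNA uncalled there, were CCND3 in total RNA (0.20), nuclear RNA (0.25) and the interaction (0.0545), TSPAN31 (1.42), RB1 (1.01) and CDKN1B (0.39) in nuclear RNA, RB1 (0.0443), CDKN1B (1.23) and CCNE1 (0.10) in the interaction, CDKN1A in the DMSO balance (-0.0485), and TSPAN31 (0.0893) and CCNE1 (0.61) in the JQ1-VHL balance. With edgeR and ERCC factors they were CDK4 in total RNA (-0.19), CCND3 in cytoplasmic RNA (-0.69), CDKN1A in the DMSO balance (-0.0557) and CCNE1 in the JQ1-VHL balance (0.23). With the highest interval they were CCNE1 in total RNA (0.10), TSPAN31 (1.33) and RB1 (0.11) in nuclear RNA, CDKN1A in the DMSO balance (-0.38) and CCNE1 in the JQ1-VHL balance (1.53). Against the rescaled limma values, edgeR with TMM turned CCND3 (-0.0303) and RB1 (-0.19) in the interaction and TSPAN31 in the JQ1-VHL balance (-0.10), where DESeq2 gave -0.0124. With all intervals of a gene divided in the middle, in place of its end intervals, the mean nuclear log2 ratio of first to last intervals under JQ1-VHL was 0.83 for CCNE1 (against 1.24) and 3.17 for CDK4 (against 2.06), and both CCNE1 means include library 3, whose 2 reads lie in 1 interval. The cause of these shifts was not tested.

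Leaving out 1 library at a time, the counts ran from 0 to 1 in total (1 to 4 rescaled), 1 to 3 in nuclear, 0 to 2 in cytoplasmic RNA (2 to 6 rescaled), 0 to 3 in the rescaled interaction and 0 to 4 in the DMSO balance. The log2 changes that crossed 0 ran, on the ERCC scale, from -0.56 to 0.65 for CCND3, -1.39 to 0.0641 for CCNE1 and -0.22 to 0.77 for CDK4 in total RNA. They ran from -0.62 to 0.00689 for TSPAN31 in nuclear RNA, and from -1.03 to 1.12 for CCND3, -0.25 to 1.40 for CDK4 and -0.0476 to 0.76 for CDKN1A in cytoplasmic RNA. In the interaction they ran from -2.40 to 0.26 for CCNE1 and -1.13 to 0.20 for CDKN1B. In the DMSO balance they ran from -0.28 to 0.97 for CCND1, -0.20 to 0.61 for CDKN1A and -0.45 to 1.51 for CCNE1, and in the JQ1-VHL balance from -0.21 to 0.90 for CDKN1B and -1.74 to 0.92 for CCNE1. After rescaling they ran from -1.61 to 0.51 for CCNE1 in nuclear RNA, and from -0.034 to 0.58 for CCND3 and -0.43 to 0.93 for CDKN1A in cytoplasmic RNA. In the rescaled interaction they ran from -0.18 to 0.28 for RB1, -0.34 to 0.26 for CCND3 and -0.60 to 1.51 for CCNE1. In the rescaled balances they ran from -0.83 to 0.54 for CDKN1A in DMSO, and from -0.10 to 1.99 for CCNE1 and -0.18 to 0.44 for TSPAN31 under JQ1-VHL. Depth limits TSPAN31 and CCNE1 most, which held 0 to 46 reads in a cytoplasmic library and 2 in JQ1-VHL nuclear library 3. A gene left without a call is not shown to be unchanged.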
